A study of Mus musculus with 8 samples.

Results

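The 9 genes described here encode transcription regulators of the spermatid programme: Mybl1, Crem, Fhl5, Rfx2, Tbpl1, Taf7l, Sox30, Brdt and Gtf2a1l. They were taken by symbol from the gene read tables, and all 9 were found among the 19276 entries and passed the low-count filter in each comparison. RNA was sequenced from whole testis and from immunoprecipitates (IPs) made from testis lysate with an antibody against RNF17, a Tudor domain protein of germ cells. The C57BL/6 mice were 6 weeks old and were homozygous or heterozygous at Rnf17; the labels do not describe the allele, and the homozygotes are set against the heterozygotes, which carry it too. The 8 libraries form 4 groups of 2: homozygous testis, heterozygous testis, homozygous RNF17 IP and heterozygous RNF17 IP. The testis libraries are also the level against which the deposited tables set the IPs. The labels do not tell whether both libraries of a group are from different animals, and the p-values cover the spread among these libraries alone, which can be technical.

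Male germ cells change their transcription repeatedly, first on entry into meiosis and again after it, when haploid round spermatids switch on the genes of the acrosome, tail and condensed nucleus. A-MYB (Mybl1) drives much of the pachytene programme, including the precursors of pachytene piRNAs and the gene for RFX2. In spermatids CREM, with its coactivator ACT (Fhl5), and SOX30 turn on late genes, and testis forms of the general machinery (Tbpl1, Taf7l and Gtf2a1l) stand beside or in place of the common factors.

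Rnf17 itself followed the labels, with 50.1 and 105 CPM in homozygous testis against 518 and 532 CPM in heterozygous testis, and 209 and 379.8 CPM in the homozygous IP against 1273 and 1173 CPM in the heterozygous IP (edgeR adjusted p = 0.139 in testis and 1.85e-04 in the IPs). For testis, the DESeq2 adjusted p was 5.30e-04 and the authors' deposited table gives 0.00139. CPM are gene reads scaled to library size, with TMM factors over the 8 libraries, given for replicates 1 and 2 in that order. Gene reads per library ran from 5661754 to 50575649. Between the libraries of a group, log2 CPM correlated across 8855 genes at r = 0.970 in homozygous and 0.974 in heterozygous IPs, but at 0.873 in homozygous and 0.776 in heterozygous testis; genes are not independent replicates. The SE of the log2 fold change between genotypes ran from 0.52 to 1.0 over the 9 regulators in testis and from 0.19 to 0.32 in the IPs. With 2 libraries in each group, an unchanged gene can also separate without overlap. The share of all genes that did so was not counted.

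In the IPs, 5 of the 9 regulators differed between genotypes. These IP levels were not set against testis levels, and edgeR called 0 of the 9 for a genotype difference in the ratio of IP to testis. Fhl5, Crem and Sox30 fell in the homozygous IP, 16.4-fold, 1.95-fold and 2.10-fold, while Rfx2 and Taf7l rose 1.72-fold and 1.69-fold. Mybl1, Tbpl1, Brdt and Gtf2a1l did not pass the test. EdgeR's quasi-likelihood test, with Benjamini-Hochberg adjustment and a threshold of 0.05 on adjusted p, called 17.7% of the 13427 genes tested lower and 12.4% higher in the homozygous IP, beside 3 and 2 of the 9. Without heterozygous IP replicate 1, 1482 and 587 genes were called lower and higher in place of 2371 and 1671, and 3 and 0 of the 9. The median log2 fold change of the 9 was 0.0096, beside -0.030 for all genes tested.

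**Figure D1:**
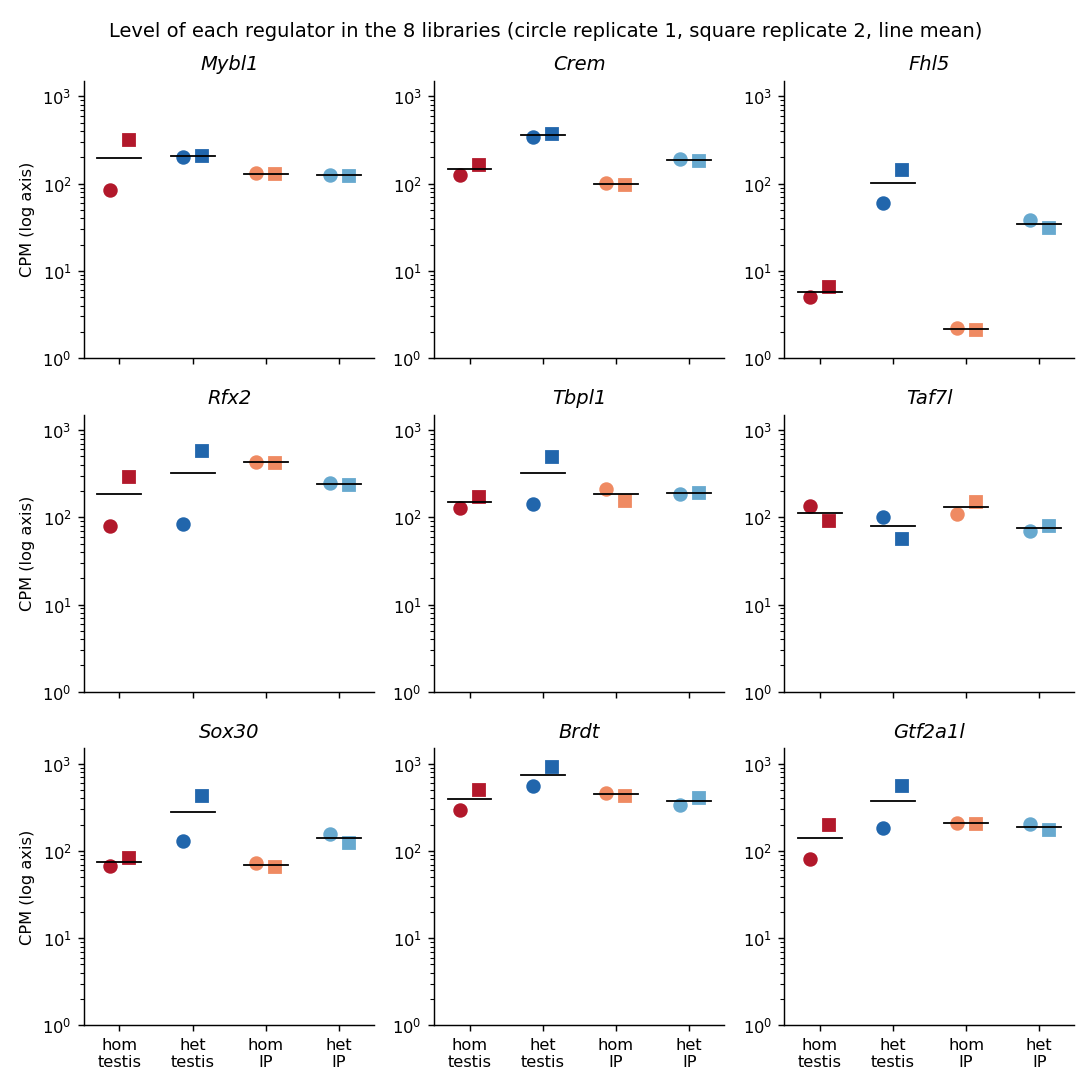
CPM (log axis) of each regulator in the 8 libraries, by group, with circles for replicate 1, squares for replicate 2 and a line at the mean. Fhl5 lies between 2.10 and 6.57 CPM in the homozygous libraries and between 31.0 and 143 CPM in the heterozygous ones, while Rfx2 and Sox30 spread widely between the heterozygous testis libraries and less between the IPs.

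Promoter sequences are shown for regulators that fell (Fhl5 and Sox30) or rose (Rfx2 and Taf7l) in the homozygous IP. Crem fell too, but no promoter of it was available. They come from RefSeq on GRCm38.p6, while the read tables use mm9, and the table held promoters of 7 of the 9 genes. Mybl1 and Crem had none there and were not searched. Each runs 5′ to 3′ on the gene's strand from 250 bases before to 50 bases after an annotated start. Capitals mark matches, on either strand, to the cyclic AMP response element TGACGTCA, its shorter form TGACG, the MYB core AACTG, the RFX site GTTGCC, the SOX core ACAAT or the TATA box TATAAA.
Fhl5 first start, chr4:25242217-25242516, minus strand: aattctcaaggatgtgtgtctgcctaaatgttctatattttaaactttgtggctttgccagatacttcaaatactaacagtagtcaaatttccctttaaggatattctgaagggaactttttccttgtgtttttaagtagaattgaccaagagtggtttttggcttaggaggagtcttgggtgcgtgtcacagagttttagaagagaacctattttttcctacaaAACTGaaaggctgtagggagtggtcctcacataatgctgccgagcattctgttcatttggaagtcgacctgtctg
Fhl5 second start, chr4:25242803-25243102, minus strand: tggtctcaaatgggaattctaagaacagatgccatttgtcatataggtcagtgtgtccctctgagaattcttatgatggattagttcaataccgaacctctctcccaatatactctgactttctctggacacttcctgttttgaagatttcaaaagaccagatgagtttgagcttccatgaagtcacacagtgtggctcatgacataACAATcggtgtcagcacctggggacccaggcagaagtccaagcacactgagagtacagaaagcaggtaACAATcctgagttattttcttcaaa
Sox30, chr11:45980060-45980359, plus strand: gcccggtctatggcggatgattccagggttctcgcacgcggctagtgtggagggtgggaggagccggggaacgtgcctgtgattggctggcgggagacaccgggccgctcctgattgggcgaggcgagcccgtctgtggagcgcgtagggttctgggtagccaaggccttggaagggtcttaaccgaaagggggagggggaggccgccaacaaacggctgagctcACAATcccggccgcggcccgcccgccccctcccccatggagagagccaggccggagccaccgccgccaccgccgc
Rfx2, chr17:56830959-56831258, minus strand: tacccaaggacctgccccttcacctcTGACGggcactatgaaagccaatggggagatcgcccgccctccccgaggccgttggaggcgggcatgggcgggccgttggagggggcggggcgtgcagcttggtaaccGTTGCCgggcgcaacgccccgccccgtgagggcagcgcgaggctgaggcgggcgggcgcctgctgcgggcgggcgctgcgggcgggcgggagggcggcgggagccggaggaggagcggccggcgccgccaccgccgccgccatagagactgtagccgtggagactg
Taf7l, chrX:134476441-134476740, minus strand: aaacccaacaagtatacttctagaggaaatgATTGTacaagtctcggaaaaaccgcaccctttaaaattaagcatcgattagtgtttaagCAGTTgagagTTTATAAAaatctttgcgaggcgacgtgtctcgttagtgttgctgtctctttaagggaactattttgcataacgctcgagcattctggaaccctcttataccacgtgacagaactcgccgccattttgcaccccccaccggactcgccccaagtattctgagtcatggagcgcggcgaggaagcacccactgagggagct

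The full response element was in none of the 8 promoters of the 7 genes, and in 1.79% of the 32851 promoters of that length in the mouse table. The shorter form was in the Rfx2 promoter alone, at -224 from the start (leftmost base on the printed strand), and in 20.8% of all promoters. Rfx2 also held an RFX site at -116; that site was in 2 of the 8 promoters, the other being that of Gtf2a1l, and in 12.5% of all promoters. MYB cores lay in Fhl5 (-25 from the first start), Taf7l (-160) and Tbpl1, 3 of 8 promoters beside 44.8% of all. SOX cores lay in Sox30, Taf7l and the second Fhl5 promoter, beside 31% of all promoters. Taf7l alone of the 7 genes had matches to the TATA letters, which overlap on both strands at -150 and -148, beside 13.6% of all promoters. These letters are short and are a description of sequence, not binding sites, and a promoter without them says nothing of the factor.

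CREM is a leucine zipper factor that binds cyclic AMP response elements, and its activator isoforms are needed for round spermatids to develop further. FHL5, a LIM-only protein also called ACT, is its testis coactivator and acts without phosphorylation of CREM. Fhl5 had 2.22 and 2.10 CPM in the homozygous IP, against 38.0 and 31.0 CPM in the heterozygous IP. These rest on 12 and 13 reads in the homozygous and 402 and 198 in the heterozygous libraries. The level was 16.4-fold lower in homozygotes (log2 fold change -4.04, SE 0.32, edgeR adjusted p = 4.68e-06), and every homozygous library lay below every heterozygous one.

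In whole testis Fhl5 was at 4.96 and 6.57 CPM in homozygotes, against 60.2 and 143 CPM in heterozygotes. Here too the genotypes did not overlap, although the heterozygous libraries differed 2.37-fold from each other. The log2 fold change was -4.22 (SE 0.71), with an edgeR adjusted p of 0.133, above the threshold of 0.05, whereas DESeq2 called it (adjusted p = 1.98e-07). Without heterozygous testis replicate 1 or 2 the log2 fold change was -4.75 or -3.40. Without homozygous testis replicate 1 or 2 it was -3.99 or -4.34. Each of these fits leaves a group a lone library. Fhl5 is the only one of the 9 in the authors' deposited table of differing genes. Its mean normalised signals there are 81.0 in homozygotes and 1528 in heterozygotes. The authors give a log2 fold change of -3.10 and an adjusted p of 1.35e-06. That log2 fold change is smaller in size than the ratio of those means gives, for a reason not stated with the values.

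Crem had 102 and 96.0 CPM in the homozygous IP, against 193 and 181 CPM in the heterozygous IP (log2 fold change -0.96, SE 0.19, edgeR adjusted p = 0.00298). In testis it was at 127 and 165 CPM in homozygotes and 346 and 369 CPM in heterozygotes. The genotypes were separate there as well, with a log2 fold change of -1.37 (SE 0.52) that missed the threshold (edgeR adjusted p = 0.431). Crem makes activator and repressor forms, including the short repressor ICER, and gene-level counts do not separate them.

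The spermatid genes reported to need CREM were at far lower levels. All 7 listed genes, Prm1, Prm2, Tnp1, Tnp2, Odf1, Smcp and Camk4, fell in the homozygous IP by edgeR, beside 17.7% of all genes. Their median log2 fold change was -6.67. All of them but Camk4 are also among the elongating spermatid markers described further on, so the lists are not separate observations. In testis all 7 lay below 0 with a median of -5.90, 0 of 7 passed in edgeR and 7 of 7 in DESeq2. Prm1, a protamine of sperm chromatin, had 4.80 and 2.74 CPM in the homozygous IP and 858 and 738 CPM in the heterozygous IP. Prm2, the other protamine, was at 4.06 and 6.45 CPM in the homozygous and 1054 and 987 CPM in the heterozygous IP. The transition protein gene Tnp1 was at 5.54 and 9.84 CPM in the homozygous and 818 and 722 CPM in the heterozygous IP (for Prm1, Prm2 and Tnp1, edgeR adjusted p = 1.34e-07, 1.34e-07 and 3.28e-07). Tnp1 had 40.9 and 19.1 CPM in homozygous testis, against 1204 and 7521 CPM in heterozygous testis. Whether the listed genes fell by more than Crem was not tested.

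SOX30 is an HMG-box factor that starts the round spermatid programme and is needed for late meiotic and postmeiotic gene expression. Sox30 had 72.4 and 66.0 CPM in the homozygous IP, against 157 and 124 CPM in the heterozygous IP (log2 fold change -1.07, SE 0.20, edgeR adjusted p = 0.00247). In testis it was at 67.1 and 82.4 CPM in homozygotes and 129 and 431 CPM in heterozygotes. No homozygous library reached a heterozygous one in either material. In testis the log2 fold change of -2.00 had an SE of 0.72 and was called neither by edgeR (adjusted p = 0.388) nor by DESeq2 (0.102). That log2 fold change was -2.66 without heterozygous testis replicate 1 and shrank to -0.80 without heterozygous testis replicate 2. Without homozygous testis replicate 1 or 2 it was -1.80 or -2.05.

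RFX2, a winged-helix factor, controls genes of the cilium and sperm tail. Rfx2 rose in the homozygous IP, to 435 and 419.8 CPM, against 249 and 232 CPM in the heterozygous IP (log2 fold change 0.78, SE 0.19, edgeR adjusted p = 0.00909). Testis held 79.3 and 293 CPM in homozygotes and 83.2 and 568 CPM in heterozygotes. The replicate 1 libraries of both genotypes were low and the replicate 2 libraries high, so that the genotypes overlapped and the log2 fold change of -0.93 had an SE of 1.0 (edgeR adjusted p = 0.814). The IP call was lost without heterozygous IP replicate 1 (adjusted p = 0.0643) or replicate 2 (0.0640), fits that leave that group a lone library. Without heterozygous testis replicate 2 the testis value turned to 1.12.

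TAF7L is an X-linked counterpart of the TFIID subunit TAF7 and works in germ cells with the TBP-like factor encoded by Tbpl1. Taf7l had 110.5 and 150.4 CPM in the homozygous IP, against 69.9 and 79.7 CPM in the heterozygous IP, a rise (log2 fold change 0.76, SE 0.22, edgeR adjusted p = 0.0212). It was the only regulator with a positive testis log2 fold change, 0.49 (SE 0.56, edgeR adjusted p = 0.829). There the libraries were at 136 and 90.4 CPM in homozygotes and 100 and 57.0 CPM in heterozygotes and overlapped. Without homozygous IP replicate 2 or heterozygous IP replicate 1 the IP call was lost (adjusted p = 0.101 and 0.177).

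Tbpl1 encodes the TBP-like factor itself, which lacks affinity for the TATA box and is needed for spermatids to organise their chromatin and survive. It had 213 and 153 CPM in the homozygous IP and 183 and 192 CPM in the heterozygous IP, overlapping ranges with a log2 fold change of -0.082 (SE 0.21, edgeR adjusted p = 0.804). Testis held 128 and 173 CPM in homozygotes and 142 and 497 CPM in heterozygotes. Replicate 2 of heterozygotes alone stood apart; without it the testis value of -1.18 became 0.059. In the RefSeq annotation Tbpl1 overlaps Slc2a12, a sugar transporter gene with at most 11.8 CPM in any library.

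Gtf2a1l encodes ALF, the germ cell form of the large TFIIA subunit. The IP levels of Gtf2a1l were 208 and 205 CPM in homozygotes and 203 and 172 CPM in heterozygotes (log2 fold change 0.092, SE 0.19, edgeR adjusted p = 0.750). The testis levels were 81.2 and 201 CPM in homozygotes and 182 and 559 CPM in heterozygotes, ranges that overlap (log2 fold change -1.50, SE 0.76, edgeR adjusted p = 0.593). That value became -0.40 without heterozygous testis replicate 2.

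Mybl1 and Brdt act earlier. Mybl1 was nearly level between the IPs, with 132 and 127 CPM in homozygotes and 127 and 123 CPM in heterozygotes, a log2 fold change of 0.0096 with an SE of 0.19 (edgeR adjusted p = 0.975). In testis the homozygous libraries, at 84.5 and 313 CPM, lay on either side of the heterozygous ones, at 204 and 208 CPM. Its testis log2 fold change of -0.14 turned to 0.56 without homozygous replicate 1.

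BRDT, a bromodomain protein that reads acetylated histones, is needed in spermatocytes for meiotic transcription and in spermatids for chromatin compaction. Brdt had 460.4 and 433 CPM in the homozygous IP and 338 and 410.2 CPM in the heterozygous IP (log2 fold change 0.21, SE 0.20, edgeR adjusted p = 0.466). The testis values ran the other way, at 298 and 498 CPM in homozygotes and 558 and 926 CPM in heterozygotes, ranges that did not overlap. That log2 fold change of -0.99 (SE 0.61) did not pass (edgeR adjusted p = 0.666).

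In homozygous against heterozygous testis as a whole, 8 of the 9 regulators lay below 0, with a median log2 fold change of -1.18 where the median of all 14332 genes was 0.037. Without heterozygous testis replicate 2, 6 of the 9 lay below 0 and their median was -0.40. EdgeR called 0 of the 9 and 0% of all genes. At an unadjusted p under 0.05 stood 3 of the 9 (Fhl5, Sox30 and Crem), beside 10.1% of all genes. DESeq2 called 1 of the 9, Fhl5, and 4.58% of the 15407 genes it tested. Leaving out a library moved the count of genes called lower by edgeR to between 73 (without homozygous testis replicate 2) and 1076 (without heterozygous testis replicate 1, where Fhl5 and Sox30 were called). In whole tissue, fewer cells of a type and less RNA per cell cannot be told apart.

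**Figure D2:**
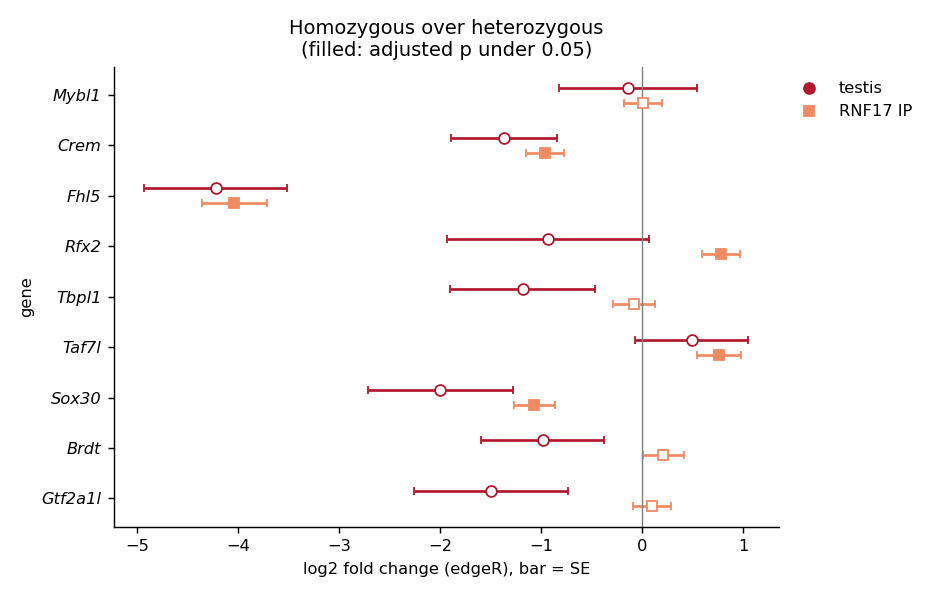
Log2 fold change of homozygous over heterozygous libraries (x axis) for each regulator (y axis), in testis (circles) and RNF17 IP (squares), with SE bars and filled symbols where the edgeR adjusted p was under 0.05. Fhl5 lies near -4 in both, whereas Rfx2 lies at -0.93 in testis and 0.78 in the IP.

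Cell type markers were set beside these values. Summed markers of elongating spermatids (10 genes) were at 282 and 250.1 CPM in homozygous and 4729 and 22841 CPM in heterozygous testis, and at 270.1 and 298 CPM in homozygous and 7045 and 6667 CPM in heterozygous IPs. Round spermatid markers (10 genes) summed to 377 and 667 CPM in homozygous and 1344 and 4401 CPM in heterozygous testis, and to 607 and 568 CPM in homozygous and 1823 and 1754 CPM in heterozygous IPs. EdgeR called 9 of these 10 lower in the homozygous IP, and 10 of 10 elongating spermatid markers; in testis it called 0 of either list and DESeq2 5 and 10.

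Pachytene spermatocyte markers (10 genes) had overlapping sums in testis, at 3530.5 and 9106 CPM in homozygotes and 5611 and 8786 CPM in heterozygotes. Taken gene by gene, 9 of the 10 lay below 0 there (median log2 fold change -0.45, all genes 0.037), and edgeR called 0. In the IPs the sums were 6870.3 and 7519 CPM in homozygotes and 5303 and 5581 CPM in heterozygotes. Of the genes, 3 were called higher and 2 lower, with 5 above 0 and 5 below (median -0.036, all genes -0.030). Spermatogonial markers (8 genes) were at 258 and 233 CPM in homozygous and 147 and 115 CPM in heterozygous testis, and Sertoli cell markers (9 genes) at 843 and 1135 CPM in homozygous and 423 and 496 CPM in heterozygous testis. Leydig cell markers (7 genes) summed to 547 and 775 CPM in homozygous and 217 and 319 CPM in heterozygous testis. Peritubular myoid markers (5 genes) stood at 222 and 127 CPM in homozygous and 97.1 and 79.5 CPM in heterozygous testis, and macrophage markers (5 genes) at 13.4 and 31.0 CPM in homozygous and 6.80 and 8.31 CPM in heterozygous testis. The spermatogonial and somatic sums were higher in every homozygous testis library than in any heterozygous one, and edgeR called none of their genes there. Between the IPs the spermatogonial, Sertoli and myoid sums also stood apart (135 and 120.4 CPM for spermatogonia in homozygotes against 107 and 88.8 CPM in heterozygotes), while the Leydig and macrophage sums overlapped. Insl3, a defining Leydig cell gene, is listed at 0 in all 8 libraries, and Amh of Sertoli cells and Cd14 of macrophages at 0 in 3 libraries each. The part of cell composition in the values of the 9 regulators was not tested.

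**Figure D3:**
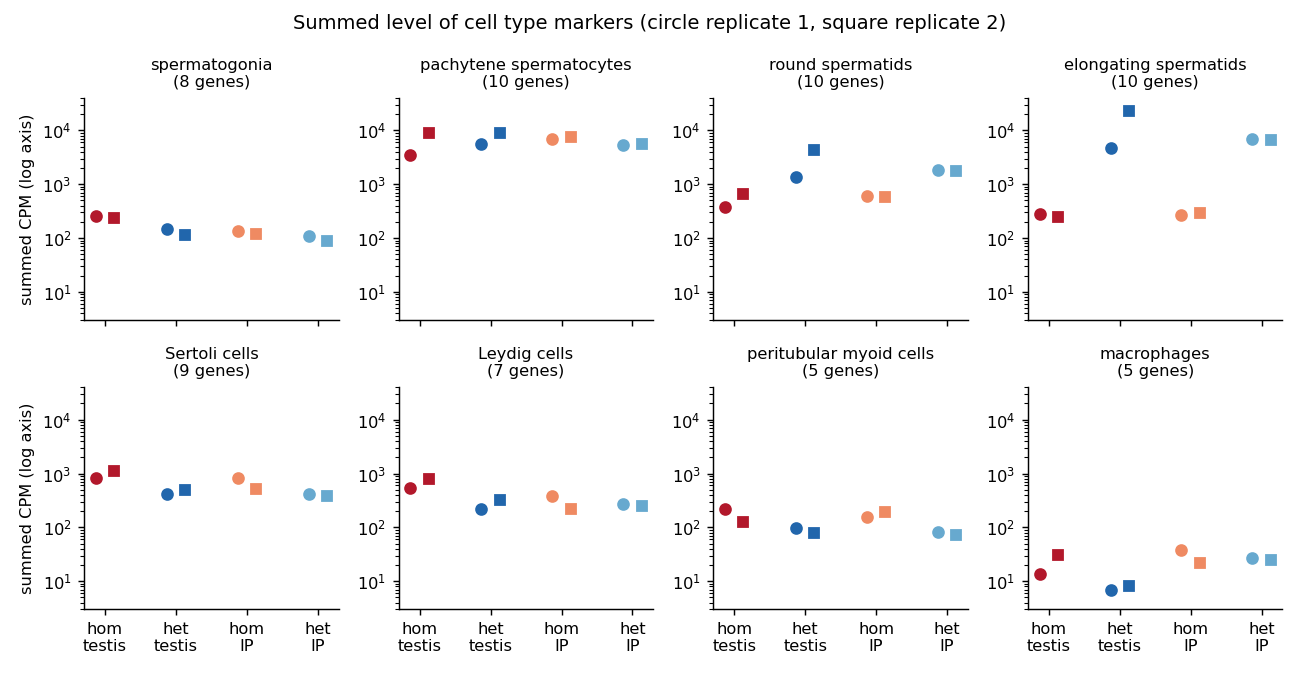
Summed CPM (log axis) of each marker list in the 8 libraries by group, circles replicate 1 and squares replicate 2. The 2 spermatid lists are lower in all homozygous libraries, and heterozygous testis replicate 2 holds the highest elongating spermatid sum, 22841 CPM.

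The scaled level of each RNA in the RNF17 IP was compared with that in testis as the ratio of IP to testis. Such levels are relative within a library and do not measure how much RNA was recovered. In heterozygotes all 9 regulators lay below their testis level (median log2 ratio -0.92, all genes -0.043; without heterozygous testis replicate 2, 5 of the 9 and a median of -0.44), but edgeR called 0 of the 9 and 0% of the 13562 genes tested. Unadjusted p was under 0.05 for 3 of the 9 (Crem, Fhl5 and Brdt) and 18.1% of all genes, and DESeq2 called 0 of the 9 and 4.7% of genes. Rnf17 RNA, by contrast, had 1273 and 1173 CPM in the heterozygous IP against 518 and 532 CPM in its testis. Its log2 ratio was 1.24 (SE 0.30, edgeR adjusted p = 0.214) in heterozygotes. In homozygotes the Rnf17 ratio was larger, 2.03 (SE 0.47, edgeR adjusted p = 0.0396). The difference of these ratios between genotypes, 0.82 (SE 0.62), did not pass (edgeR adjusted p = 0.725).

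Crem stood at a log2 ratio of -0.92 (SE 0.31) in the heterozygous IP, with both IP libraries below both testis libraries. Fhl5 was at -1.53 (SE 0.51), Brdt at -0.96 (SE 0.37) and Mybl1 at -0.70 (SE 0.32), again with no overlap. With 2 libraries against 2, unchanged genes can separate as well, and the share of all genes that did was not counted. For Rfx2, Tbpl1, Taf7l, Sox30 and Gtf2a1l the IP levels overlapped the testis levels or lay between the testis libraries, and leaving out heterozygous testis replicate 2 turned all of these but Taf7l to a positive ratio, while Taf7l turned positive without heterozygous testis replicate 1 or heterozygous IP replicate 1. The count of the 9 called lower moved to 8 without heterozygous testis replicate 1, and to 4, with 1 called higher, without replicate 2.

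In homozygotes, 5 of the 9 log2 ratios lay above 0 and 4 below (median 0.26). EdgeR called 0 of the 9, beside 1.84% of 13334 genes higher and 1.45% lower in the IP. Rfx2 had the largest ratio of the 9, at 1.32 (SE 0.53, edgeR adjusted p = 0.168), and Fhl5 the smallest, at -1.33 (SE 0.59, edgeR adjusted p = 0.207). Both Rfx2 IP libraries, 435 and 419.8 CPM, exceeded both testis libraries, 79.3 and 293 CPM. Without homozygous testis replicate 2, Rfx2 and Gtf2a1l passed (edgeR adjusted p = 2.09e-09 and 4.58e-04) while Mybl1 turned positive and Taf7l negative. Without homozygous testis replicate 1, Mybl1 passed as lower (0.00151) and Brdt turned negative, and without homozygous IP replicate 2 Sox30 turned positive. The number of genes called higher ran from 53 without homozygous IP replicate 2 to 2319 without homozygous testis replicate 2.

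The difference of the ratios, homozygous minus heterozygous, was above 0 for all 9, from 0.24 for Mybl1 (SE 0.72) to 1.79 for Rfx2 (SE 1.16), with a median of 1.01 where all 14180 genes had -0.022. Without heterozygous testis replicate 2 the median was 0.18. None of the 9 passed in edgeR, which called 0% of genes; 0 of the 9 and 9.68% of genes had an unadjusted p under 0.05. DESeq2 called 0 of the 8 that it tested (not Fhl5) and 5.01% of the 4887 genes it tested. Brdt came nearest, at 1.27 (SE 0.57, edgeR adjusted p = 0.525). The ratios share the testis libraries with the comparison of genotypes in testis, and without heterozygous testis replicate 2 the differences for Fhl5, Rfx2, Tbpl1 and Sox30 turned below 0. Mybl1 did so without homozygous testis replicate 1 and Taf7l without heterozygous testis replicate 1.

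**Figure D4:**
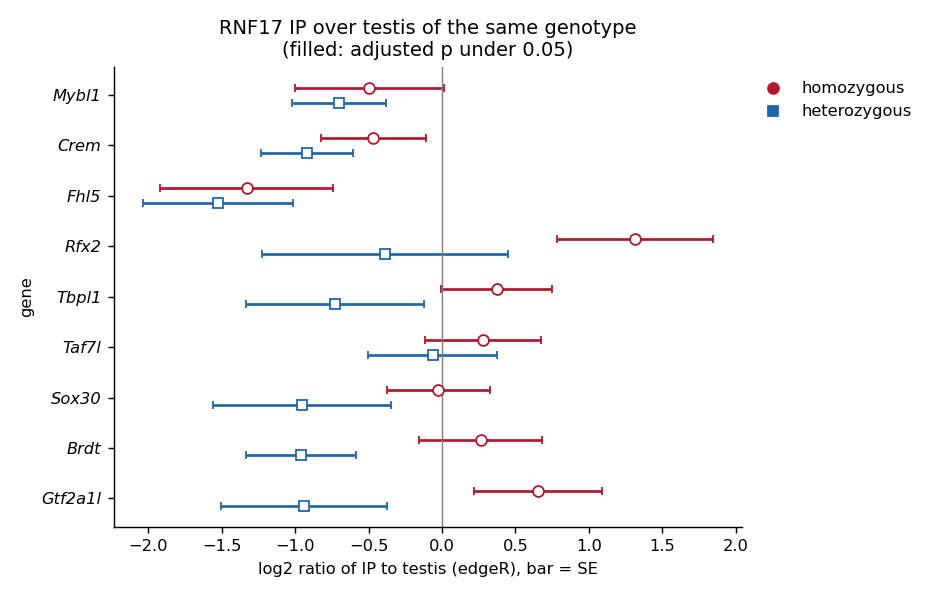
Log2 ratio of RNF17 IP to testis of the same genotype (x axis) for each regulator (y axis), homozygous (circles) and heterozygous (squares), with SE bars. No symbol is filled, since none of the 9 passed in either genotype, and Rfx2 shows the widest gap, 1.32 in homozygotes against -0.39 in heterozygotes.

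Relatives of the 9 in the same gene families gave a background for their changes between the IPs. Of 23 listed relatives 20 were tested, and 2 rose and 5 fell in the homozygous IP, where 12.4% of all genes were called higher and 17.7% lower (median log2 fold change -0.058). Creb3l4, a membrane-bound CREB relative of spermatids, fell to 47.5 and 42.9 CPM in the homozygous IP, against 255 and 189.8 CPM in the heterozygous IP (log2 fold change -2.34, SE 0.22, edgeR adjusted p = 1.51e-05), whereas Creb1 and Atf1, the widely expressed partners of CREM, were not called (adjusted p = 0.101 and 0.565). The Rfx family divided. Rfx1 fell to 9.05 and 4.19 CPM in the homozygous IP, against 40.5 and 26.0 CPM in the heterozygous IP (log2 fold change -2.39, SE 0.37, edgeR adjusted p = 5.93e-04). Rfx4 fell to 60.0 and 53.9 CPM in the homozygous IP, against 115 and 114 CPM in the heterozygous IP (log2 fold change -1.05, SE 0.20, edgeR adjusted p = 0.00217), and Rfx3 fell too (edgeR adjusted p = 0.00408), while Rfx2 rose.

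Among the LIM-only genes, Fhl4, another testis member, fell as well (log2 fold change -0.85, edgeR adjusted p = 0.0105), and Fhl1 and Fhl2 were not called. The common forms of the general factors, Tbp, Taf7 and Gtf2a1, were not called (adjusted p = 0.954, 0.853 and 0.0765). The Taf7l relative 4933416C03Rik, whose current symbol is Taf7l2, rose to 563 and 662 CPM in the homozygous IP, against 338 and 307 CPM in the heterozygous IP (log2 fold change 0.88, SE 0.20, edgeR adjusted p = 0.00617). Reads of Taf7l and its relative may be shared where the copies are alike, which makes both uncertain. The other rise was in Sox17 (log2 fold change 1.43, edgeR adjusted p = 0.00671), an endoderm and vessel factor of the wider SOX family. In testis 0 of 21 tested relatives were called by edgeR and 1 by DESeq2; Fhl4, with the highest mean, had 384 and 1300.4 CPM in homozygotes and 975 and 3620.0 CPM in heterozygotes (edgeR adjusted p = 0.645).

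**Figure D5:**
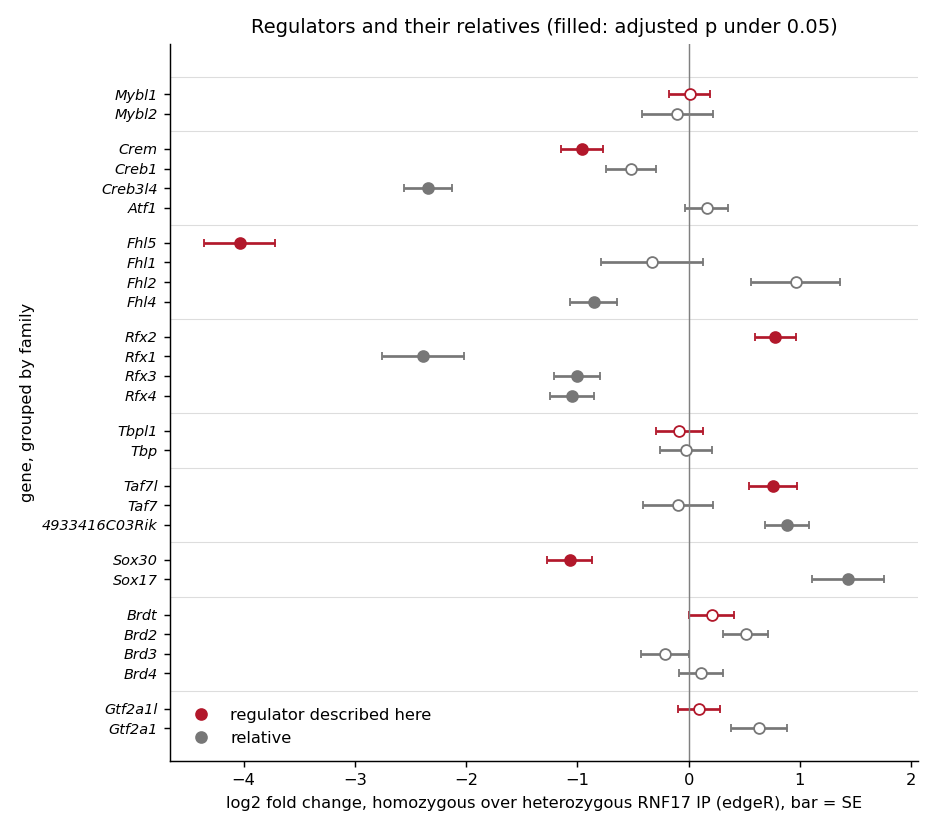
Log2 fold change of homozygous over heterozygous RNF17 IP (x axis) for the 9 regulators (red) and relatives of the same families (grey), grouped by family, with SE bars and filled symbols where the edgeR adjusted p was under 0.05. Rfx2 lies to the right of 0 and Rfx1, Rfx3 and Rfx4 to the left, and Fhl5 lies furthest left of all.

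Other transcription regulators of spermatocytes and spermatids were called in both directions between the IPs: of 18 tested, 6 fell and 1 rose, where 17.7% of all genes were called lower and 12.4% higher (median log2 fold change -0.40). Spz1, a helix-loop-helix factor of the testis, fell to 34.2 and 54.9 CPM in the homozygous IP, against 362 and 378 CPM in the heterozygous IP (log2 fold change -3.10, SE 0.25, edgeR adjusted p = 5.27e-06). The zinc finger gene Zfp37 fell to 59.9 and 66.5 CPM in the homozygous IP, against 158 and 156 CPM in the heterozygous IP (log2 fold change -1.36, SE 0.19, edgeR adjusted p = 3.67e-04). Sox5 fell to 63.7 and 72.6 CPM in the homozygous IP, against 142 and 166 CPM in the heterozygous IP (log2 fold change -1.22, SE 0.20, edgeR adjusted p = 9.95e-04). The other falls were in Hsf2, Hsfy2 and Kctd19, and the rise was in Prdm9, which marks recombination hotspots. In testis 0 of the 18 passed in edgeR and 3 by DESeq2, with a median of -0.56; Phf7, a histone reader and the gene with the highest mean, had 1157 and 1081 CPM in homozygotes and 2376 and 2204 CPM in heterozygotes (edgeR adjusted p = 0.627).

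Regulators of spermatogonia and meiotic entry came next: of 12 tested, 5 rose and 0 fell in the homozygous IP by edgeR, beside 12.4% of all genes higher and 17.7% lower, and 2 rose by DESeq2 (median 0.49). Dmrtb1, which guides the change from mitosis to meiosis, rose to 1535 and 1425 CPM in the homozygous IP, against 517 and 685 CPM in the heterozygous IP (log2 fold change 1.25, SE 0.22, edgeR adjusted p = 0.00160). Id4, a gene of stem spermatogonia, rose to 117 and 145 CPM in the homozygous IP, against 56.8 and 84.7 CPM in the heterozygous IP (edgeR adjusted p = 0.0201). Bcl6b, another gene of those cells, had 9.05 and 6.62 CPM in the homozygous IP and 2.83 and 2.97 CPM in the heterozygous IP (edgeR adjusted p = 0.0214). Id4 lost its call without heterozygous IP replicate 1 (adjusted p = 0.250) or homozygous IP replicate 2 (0.0503). Bcl6b lost it in DESeq2 (adjusted p = 0.0580) and without heterozygous IP replicate 1 (0.171) or 2 (0.0898). In testis 0 of 12 passed in edgeR, and DESeq2 called 1 of the listed genes lower, Lhx1, which the low-count filter had removed from the edgeR fit. Dmrtb1 had 108 and 396 CPM in homozygous testis and 106 and 669.8 CPM in heterozygous testis, a log2 fold change of -0.74 that turned to 1.21 without heterozygous replicate 2.

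Ciliary genes of the kind RFX factors act on were also compared: of 13 tested, 2 rose and 1 fell in the homozygous IP, beside 12.4% of all genes higher and 17.7% lower (median -0.11). Rsph1, of the radial spoke, rose to 4329 and 3305 CPM in the homozygous IP, against 1717 and 2273 CPM in the heterozygous IP (log2 fold change 0.89, SE 0.25, edgeR adjusted p = 0.0195), and the transport gene Ift122 rose to 565 and 671 CPM in the homozygous IP, against 359.6 and 355 CPM in the heterozygous IP (edgeR adjusted p = 0.0148). Dync2li1, a light intermediate chain of the ciliary dynein, fell to 19.0 and 16.9 CPM in the homozygous IP, against 34.6 and 31.0 CPM in the heterozygous IP (edgeR adjusted p = 0.0139). Without heterozygous IP replicate 1 all these calls were lost (adjusted p = 0.202, 0.110 and 0.117). Ift122 also lost its call without heterozygous IP replicate 2 (0.0667) or homozygous IP replicate 2 (0.0543), and Rsph1 without homozygous IP replicate 1 (0.0573). In testis 0 of 13 passed in edgeR and 1, Meig1, was called lower by DESeq2 (adjusted p = 0.0208). Rsph1 was there at 2734 and 6910.5 CPM in homozygotes and 886 and 4519.6 CPM in heterozygotes, a log2 fold change of 0.72 that became -0.050 without heterozygous replicate 1.

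Over the 8 libraries, the genes with the pattern nearest to each regulator were found by Pearson correlation of log2 CPM among 8854 genes with a mean of at least 10 CPM; the 8 libraries share genotype and material, so r is a description. Fhl5 was nearest to Atp1a4 (r = 0.996), the sodium pump subunit of sperm, then Lrrc8b (0.994) and Ankrd5 (0.994). Crem was nearest to Usp25 (0.987), Sox30 to Fam46c (0.988), Rfx2 to Glb1l (0.991) and Taf7l to Evl (0.987). For Mybl1 it was Fam135a (0.987), for Tbpl1 Ccnk (0.981), for Brdt 2610301B20Rik (0.987) and for Gtf2a1l Spata4 (0.987). No regulator was among the 3 nearest genes of another.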

How the data were processed

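Testis RNA and RNA from RNF17 IPs of 6-week-old mice were made into libraries with not-so-random primers, per the labels' protocols. The authors deposited whole-number read counts per gene in 3 tables, which share 4 repeated columns of testis libraries with identical values. STAR, DESeq and the mouse build mm9 are named in the submitters' processing notes, with no role; no source used here gives versions, strand setting or the handling of shared reads. Without a stated strand, reads of overlapping genes cannot be told apart. The authors' deposited table of differing genes holds mean normalised signal, log2 fold changes, their standard error (a score here), p-values and adjusted p-values. Tables of transposon reads were not used. All columns of the gene tables were mapped to samples by name.

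From the counts, each comparison was fitted on its own 4 libraries (the difference of ratios on all 8) with edgeR 4.0.16 in R 4.3.3: filterByExpr, TMM scaling, the quasi-likelihood test and Benjamini-Hochberg adjustment over all genes tested. The printed CPM come from 1 TMM scaling over all 8 libraries, while fold changes come from each comparison's own scaling. DESeq2 1.42.0, its size factors in edgeR, no low-count filter, a replicate block and leaving out each library in turn were the alternatives. Gene reads per library ran from 5661754 to 50575649.

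The 9 genes and the gene lists were chosen with earlier results of these data known. Named from the lists were up to 3 called genes, those of smallest adjusted p, in each comparison of genotypes, or else the gene with the highest mean CPM; Rfx3, Fhl4, Sox17, Taf7l2, Lhx1, Meig1 and the remaining called regulators, and the uncalled relatives, were named after their values were seen. Of the marker symbols, Rhox5 was not matched. Promoters were read from a RefSeq table on GRCm38.p6.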

Additional observations from a re-analysis of the deposited data

How the results depend on the processing

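Between the IPs, the calls of Fhl5, Crem and Sox30 held under DESeq2, its size factors, no low-count filter, the replicate block and every library left out, and those of Rfx2 and Taf7l under all of these except the left-out libraries named above. Testis comparisons depended on the setting. Genes called higher and lower in homozygous testis, 0 and 0 in edgeR, were 21 and 684 in DESeq2 and 2 and 359 without the low-count filter, each with 1 of the 9 lower (Fhl5). For the IP over testis in homozygotes they were 678 and 641 in DESeq2 and 712 and 757 without the filter, against 245 and 193. In heterozygotes they were 241 and 346 in DESeq2, and 1 gene was higher without the filter. For the difference of ratios DESeq2 called 217 and 28.

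The shared replicate numbers are not said to mark a litter, day or preparation, and only 2 pairs exist. The deviations of same-numbered libraries correlated over 8855 genes at r = 0.609 between testis groups, 0.108 between IPs, -0.125 for homozygous and -0.0227 for heterozygous IP and testis. With the replicate number as a block, 105 genes were higher and 838 lower in homozygous testis (of the 9, 1 lower), 595 higher and 415 lower in the homozygous IP over testis (of the 9, 1 higher, Rfx2), and 128 higher and 66 lower in the heterozygous IP over testis, where Rfx2 turned to 0.16 and Taf7l to 0.000244.

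Leaving out 1 library makes the lone library of its group be assumed to vary like the other groups, and moved counts widely. Genes called higher and lower ran over 0 to 197 and 73 to 1076 in testis (of the 9, 0 to 2 lower). Between the IPs they ran over 587 to 2388 and 1482 to 3026 (of the 9, 0 to 2 higher). For the IP over testis they ran over 53 to 2319 and 36 to 2237 in homozygotes (of the 9, 0 to 2 higher and 0 to 1 lower) and over 4 to 3732 and 7 to 3546 in heterozygotes (of the 9, 0 to 1 higher and 0 to 8 lower). For the difference of ratios they ran over 0 to 225 and 0 to 34.

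Log2 fold changes that changed sign with a library left out had these ranges: in testis, Mybl1 -1.28 to 0.56, Rfx2 -2.02 to 1.12, Tbpl1 -1.86 to 0.059, Dmrtb1 -1.82 to 1.21, Rsph1 -0.050 to 2.41; between the IPs, Tbpl1 -0.30 to 0.12; for the IP over testis in homozygotes, Mybl1 -1.14 to 0.57, Taf7l -0.11 to 0.66, Sox30 -0.12 to 0.045, Brdt -0.027 to 0.54. In heterozygotes these were Rfx2 -1.26 to 1.52, Tbpl1 -1.43 to 0.39, Taf7l -0.44 to 0.37, Sox30 -1.64 to 0.11, Gtf2a1l -1.60 to 0.032, and for the difference of ratios Mybl1 -0.48 to 1.36, Fhl5 -0.56 to 0.78, Rfx2 -0.25 to 2.87, Tbpl1 -0.058 to 1.84, Taf7l -0.045 to 0.67, Sox30 -0.18 to 1.66. The causes were not tested. The 12 and 13 reads of Fhl5 in the homozygous IP limit the precision of its level there.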
